A study of Mus musculus with 8 samples.

Results

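The stage dependence of the Zfp462 knockout effect was measured in all 8 RNA sequencing libraries of the series, which were made from R1, a mouse line of embryonic stem cells (ESCs), and from the embryoid bodies (EBs) grown from it. For each gene the knockout effect in ESCs was subtracted from the knockout effect in EBs on the log2 scale, and this value is called the stage difference. A positive stage difference means that knockout minus control was higher in EBs than in ESCs, and a negative one that it was lower. Of the 55401 genes deposited, 17125 had enough counts to be tested. A gene was called when edgeR's quasi-likelihood test gave an adjusted p under 0.05, and this held for 237 genes (1.38%). Among the 237 genes, 127 had a positive stage difference (0.742% of the genes tested) and 110 a negative one (0.642%).

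Control R1 cells, labelled wild type, and R1 lines with a stable knockout of Zfp462 were each taken as undifferentiated ESCs on gelatin in serum medium with leukaemia inhibitory factor (LIF), and as EBs after 3 days as aggregates in Petri dishes. This gave 4 groups of 2 libraries. The series was set up to follow self-renewal and early differentiation without Zfp462. The sources used here give neither the edited exon nor the number of knockout clones. Whether the 2 libraries of each group are separate cultures is not stated in the labels, and p-values therefore cover the spread of these samples alone, which may be technical.

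Zfp462 encodes a zinc finger protein of the nucleus that is known to act with the heterochromatin enzymes G9a and GLP in ESCs. Cells that leave naive pluripotency switch off factors such as Tfcp2l1, Esrrb and Zfp42 and switch on formative genes such as Fgf5 and Dnmt3b, while primitive endoderm, a sister lineage of the epiblast, is marked by Gata6, Sox7, Pdgfra and Dab2 and lays down a basement membrane of laminin and collagen IV. EBs pass through this exit from naive pluripotency in their first days and often form an outer layer of primitive endoderm.

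Library totals lay between 12119763 and 16228426 counts. Zfp462 stood at 183 and 197 CPM (the count scaled to its library's total) in control ESCs, 104 and 107 in knockout ESCs, 153 and 130.3 in control EBs, and 102 in both knockout EB libraries. Its RNA was therefore lower in each knockout library than in any control library, and its stage difference of 0.38 ± 0.14 (SE) did not pass the test (adjusted p = 0.304). Both stages matched their labels by marker genes in the controls. Fgf5 and Dnmt3b were higher in control EBs than in control ESCs by 5.15 and 2.76 on the log2 scale, and Tfcp2l1 and Zfp42 had differences of -3.61 and -1.77. Groups differed in how closely their replicates resembled each other. Among 11328 genes with at least 5 CPM, 282 differed by more than 2-fold between the 2 knockout ESC libraries, against 22, 58 and 62 in control ESCs, control EBs and knockout EBs. The difference between the 2 knockout ESC libraries also ran with GC content (correlation over genes -0.691, against -0.00162 to 0.043 in the other pairs). Knockout EB replicate 1 held adult liver transcripts at a summed level of 2702 CPM over 30 genes, with all 30 at 10 or more counts, against 10.33 to 106.6 CPM in the other 7 libraries.

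**Figure D1:**
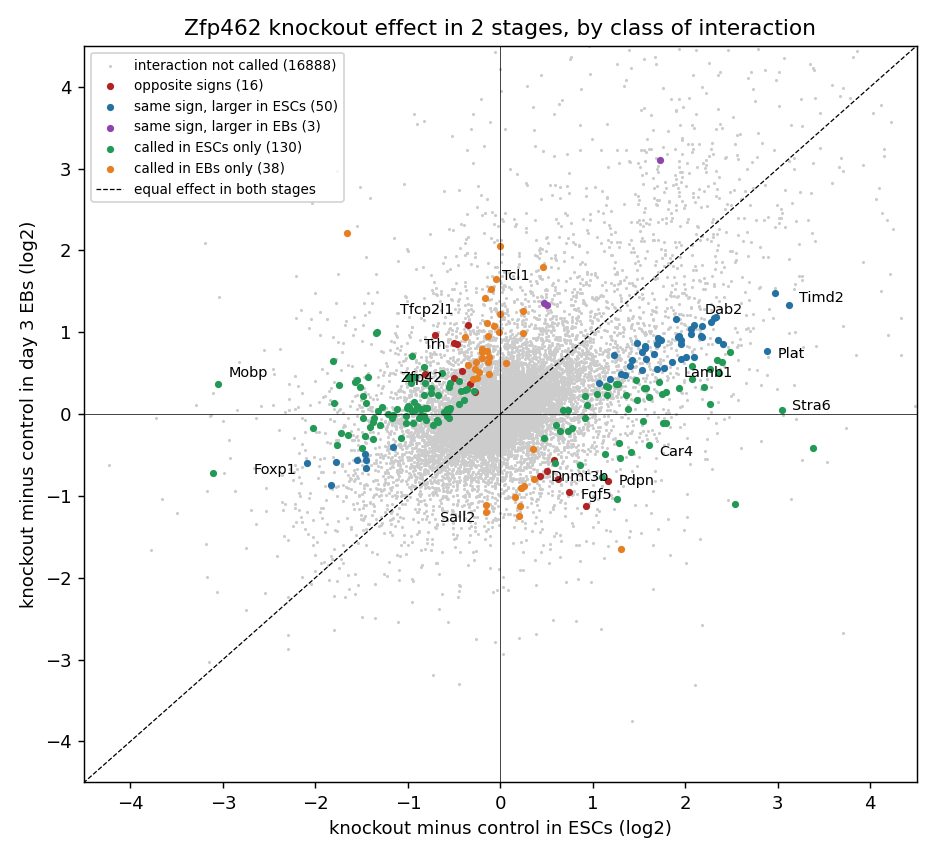
Each point is a gene, with the log2 knockout effect in ESCs on the x axis and in day 3 EBs on the y axis, and colours mark the classes of the 237 called genes. Of the 237 genes 110 have effects of 1 sign that are smaller in EBs and lie between the x axis and the dashed line of equal effects, 118 have different point signs, and the 16 genes of opposite sign lie in the upper left and lower right corners. A further 110 genes, 0 of them called, lie outside the axes at 4.5.

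In 184 of the 237 genes (77.6%) the EB effect was smaller in size than the ESC effect, and in 53 it was larger. The EB effect was also smaller in 55.9% of all genes tested and in 85.8% of the 2483 genes called in ESCs, whether or not the stages differed. The size of the stage difference ranged from 0.50 to 3.88 with a median of 1.12, while the median over all genes tested was 0.03. The tests of the separate stages called 2483 genes in ESCs (14.5% of those tested) and 1164 in EBs (6.8%). By these tests 130 of the 237 genes had a knockout effect that passed in ESCs only and 38 in EBs only. Another 50 genes had effects of 1 sign that were larger in ESCs, 3 had effects of 1 sign that were larger in EBs, and 16 had effects of opposite sign. These classes sort genes that had all passed the test of the difference itself. The test sits on a narrow base of samples, because 0 genes were called without control ESC replicate 1, without control ESC replicate 2 or without control EB replicate 2, where 1566, 1391 and 2137 genes had an unadjusted p below 0.05. In those fits DESeq2 called 150, 136 and 184 genes and limma-trend 0, 1 and 5. A further fit left out both knockout ESC replicate 2 and knockout EB replicate 1. The GC trend of the knockout ESC pair does not show which of its libraries is off. With 1 library in each knockout group, the spread in that fit came from the control pairs alone. Its calls, given below, are therefore no check on the 237 genes or on the lists.

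The class of opposite sign was small, and it held genes of the exit from naive pluripotency on both sides. All 16 genes that passed the test in both stages with opposite signs (0.0934% of the genes tested) were also called for the stage difference. In each of the 16, both knockout libraries lay on one side of both control libraries in ESCs and on the other side in EBs, an arrangement seen in 6% of all genes tested. The arrangement and the calls largely follow from choosing genes that passed in both stages with opposite signs, and are not separate support. Of the 16, 9 were lower in knockout ESCs and higher in knockout EBs, and 7 were the reverse. The sequences just upstream of 4 of them are printed here, for a naive pair from the first set, Zfp42 and Tfcp2l1, and a formative pair from the second, Dnmt3b and Fgf5. They are the 250 bases before the RefSeq start site in GRCm38.p6, from the reference strain and not the strain of R1, 5′ to 3′ on the strand of the gene, at chr8:43307010-43307259 (minus strand), chr1:118627695-118627944, chr2:153649199-153649448 and chr5:98253934-98254183 (plus strand). Capitals mark matches on either strand to the octamer ATTTGCAT, the core of the OCT4 recognition sequence, and to the GC box GGGCGG.
Zfp42: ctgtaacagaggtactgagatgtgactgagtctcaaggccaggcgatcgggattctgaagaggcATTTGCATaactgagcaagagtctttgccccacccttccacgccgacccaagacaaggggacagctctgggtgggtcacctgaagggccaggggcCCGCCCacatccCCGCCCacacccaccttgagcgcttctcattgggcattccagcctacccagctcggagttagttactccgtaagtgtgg
Tfcp2l1: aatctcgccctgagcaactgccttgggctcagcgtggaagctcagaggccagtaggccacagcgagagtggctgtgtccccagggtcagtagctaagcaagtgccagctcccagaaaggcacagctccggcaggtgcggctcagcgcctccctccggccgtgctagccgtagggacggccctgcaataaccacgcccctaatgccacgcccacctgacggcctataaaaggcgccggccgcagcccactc
Dnmt3b: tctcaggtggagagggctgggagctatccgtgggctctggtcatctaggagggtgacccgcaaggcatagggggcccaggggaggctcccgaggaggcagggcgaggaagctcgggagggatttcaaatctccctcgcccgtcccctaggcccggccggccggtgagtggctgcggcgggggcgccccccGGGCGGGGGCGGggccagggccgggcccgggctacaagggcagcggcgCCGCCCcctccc
Fgf5: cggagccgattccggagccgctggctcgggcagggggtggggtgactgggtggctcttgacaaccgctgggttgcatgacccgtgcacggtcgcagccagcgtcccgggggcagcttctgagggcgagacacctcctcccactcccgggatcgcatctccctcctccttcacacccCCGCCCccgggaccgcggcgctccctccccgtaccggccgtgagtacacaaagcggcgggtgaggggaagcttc
The Zfp42 window held 1 octamer, 186 bases before the start, and 2 GC boxes, and the Tfcp2l1 window neither motif. There were 3 GC boxes in the Dnmt3b window, of which a pair lies side by side, and 1 in the Fgf5 window. The naive pair had 9 and 16 CG dinucleotides and the formative pair 21 and 24. The median was 14 over the windows of tested genes and 13.5 over those of the opposite class. These 4 genes were picked by hand and do not describe naive or formative genes in general. Over all 32851 RefSeq promoter windows of this length the octamer was present in 1.6% and the GC box in 32.7%, and over the 14877 windows of tested genes in 1.25% and 55.3%. The 16 windows of the opposite class cover 13 of its 16 genes. Of these windows 1 held the octamer (6.25%), the Zfp42 window printed above, and 9 held the GC box (56.2%). Both motifs were picked after the values were known, and a match describes letters and not a bound site.

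Tfcp2l1 and Zfp42 were lower in knockout ESCs and higher in knockout EBs. Tfcp2l1 (ENSMUSG00000026380.10, chromosome 1 from 118627945 to 118685168 in mm10), a transcription factor that sustains naive ESCs downstream of LIF, stood at 377 and 393 CPM in control ESCs, 285 and 320.0 in knockout ESCs, 32.8 and 30.2 in control EBs and 66.3 and 67.6 in knockout EBs. The libraries of the 2 genotypes did not overlap in either stage, and the order of the genotypes turned over. The effect was -0.35 ± 0.09 in ESCs and 1.09 ± 0.10 in EBs, a stage difference of 1.43 ± 0.13 (adjusted p = 0.00245). Put the other way, the fall from ESC to EB was -3.61 in control and -2.17 in knockout cells. Zfp42 (ENSMUSG00000051176.6, chromosome 8 from 43295063 to 43306980), which encodes REX1, a zinc finger protein used as a reporter of naive cells, stood at 957 and 917 CPM in control ESCs, 599 and 725 in knockout ESCs, 272 and 279 in control EBs and 378 and 368 in knockout EBs. Here too the knockout libraries were below the controls in ESCs and above them in EBs. The stage difference of Zfp42 was 0.94 ± 0.13 (adjusted p = 0.0114).

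Trh and Ngfr followed the same order. Trh (ENSMUSG00000005892.4, chromosome 6 from 92242061 to 92244650), the precursor of thyrotropin-releasing hormone and a transcript abundant in ESCs, stood at 334 and 348 CPM in control ESCs, 229 and 261 in knockout ESCs, 280.3 and 279.8 in control EBs and 497 and 519 in knockout EBs. It was thus the highest of all groups in knockout EBs. Between ESCs and EBs it changed by -0.28 in control and by 1.05 in knockout cells, and its stage difference was 1.33 ± 0.12 (adjusted p = 0.00245). Ngfr, the p75 neurotrophin receptor, had a stage difference of 1.67 ± 0.23 (adjusted p = 0.0111), the largest on this side of the class. Dnajc6, which encodes auxilin, a cofactor that strips clathrin from vesicles, had 1.37 ± 0.23, and Mcf2, a guanine nucleotide exchange factor, 1.30 ± 0.16. The actin nucleator Cobl (0.95), the connexin Gjc1 (0.70) and Tdh (0.55), a threonine dehydrogenase on which mouse ESCs depend, completed the set.

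Dnmt3b and Fgf5, which control cells raised strongly on the way to EBs, were higher in knockout ESCs and lower in knockout EBs. Dnmt3b (ENSMUSG00000027478.15, chromosome 2 from 153649450 to 153687730), a de novo DNA methyltransferase, stood at 187 and 204 CPM in control ESCs, 275 and 252 in knockout ESCs, 1261 and 1388 in control EBs and 782 and 786 in knockout EBs. The 2 genotypes did not overlap in either stage. The effects were 0.43 ± 0.08 and -0.76 ± 0.08, with a stage difference of -1.19 ± 0.12 (adjusted p = 0.0036). Fgf5 (ENSMUSG00000029337.2, chromosome 5 from 98254184 to 98277030), a growth factor of the formative epiblast, stood at 1.55 and 1.84 CPM in control ESCs, 3.06 and 2.69 in knockout ESCs, 58.0 and 64.3 in control EBs and 32.2 and 31.0 in knockout EBs. Its level in ESCs was low in both genotypes, and its rise from ESC to EB was 5.15 in control and 3.45 in knockout cells. The stage difference of Fgf5 was -1.70 ± 0.25 (adjusted p = 0.013).

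Pdpn (ENSMUSG00000028583.14, chromosome 4 from 143267431 to 143299564), which encodes the membrane mucin podoplanin, stood at 11.6 and 10.8 CPM in control ESCs, 26.9 and 23.0 in knockout ESCs, 19.4 and 19.1 in control EBs and 10.8 and 11.03 in knockout EBs. Control cells gained Pdpn between the stages by 0.79 and knockout cells had a change of -1.19. Its stage difference of -1.98 ± 0.22 (adjusted p = 0.00418) was next in size to that of C530008M17Rik (-2.05 ± 0.36), an uncharacterised gene with at most 10.1 CPM in any library. The others were the potassium channel Kcnk1 (-1.41 ± 0.20), the netrin receptor Unc5b (-1.20 ± 0.21) and Pea15a (-1.14 ± 0.19), a death effector domain protein. All 16 genes kept opposite point signs in every alternative fit, including those without a library, but these genes were selected for that pattern.

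**Figure D2:**
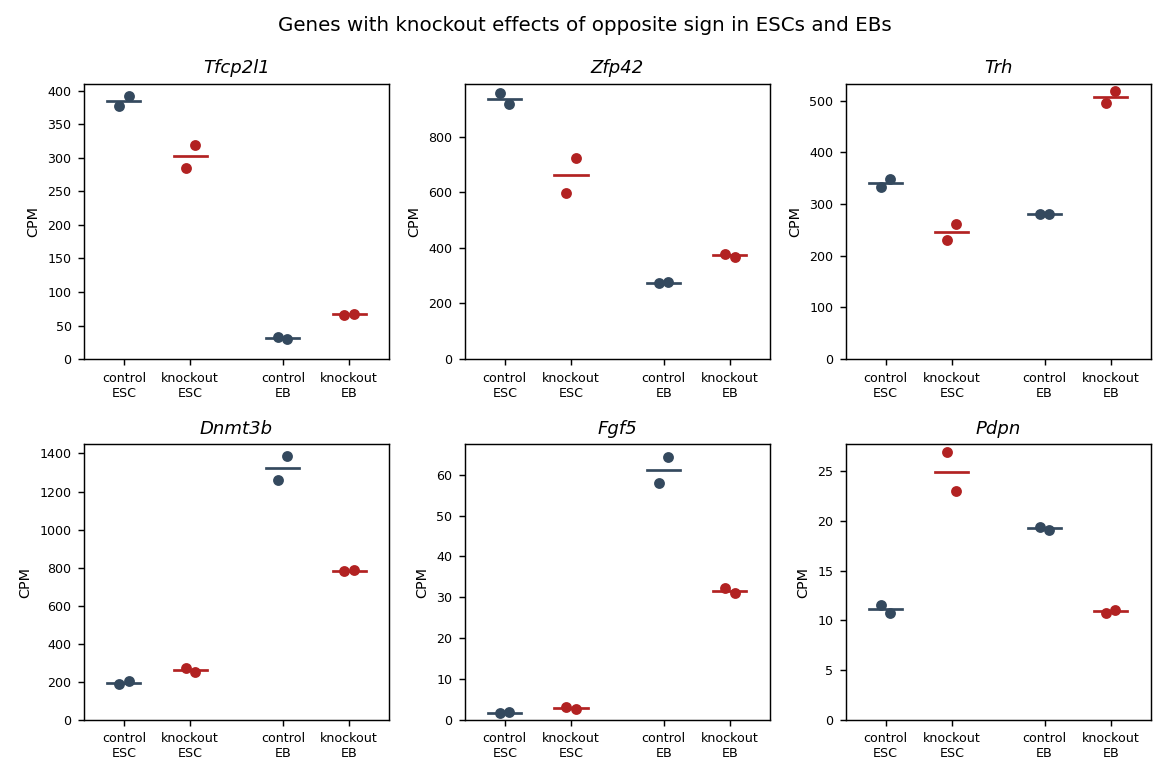
Levels in CPM of 6 genes with knockout effects of opposite sign, with 1 point per library and a bar at the mean of the 2 libraries of each group. In Tfcp2l1, Zfp42 and Trh the knockout points lie below control in ESCs and above control in EBs, and in Dnmt3b, Fgf5 and Pdpn the order is reversed.

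The naive pluripotency genes shared this direction as a list. Lists of lineage, pathway and state genes were described by counts and medians. All 16 naive genes were tested, and 7 were called with a positive stage difference and 0 with a negative one. All 16 values lay above 0, between 0.50 and 1.89. Of the 17125 genes tested, 127 were called positive (0.742%) and 110 negative (0.642%). Their values lay above 0 in 9192 and below 0 in 7933, the background for sign counts here and below. The median stage difference of the list was 1.00 (0.03 over all genes), from a median effect of -0.31 in ESCs and 0.58 in EBs. In ESCs 7 of the 16 were lower and 2 higher in knockout, and in EBs 8 were higher and 0 lower. The median stayed between 0.77 and 1.09 in every alternative fit of the list, while the number of members called ranged from 0, without either control ESC library or without control EB replicate 2, to 15, without knockout ESC replicate 2 and knockout EB replicate 1.

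The 7 called naive genes reached their stage difference in different ways. Tcl1 (ENSMUSG00000041359.14), a coactivator of AKT kinase, stood at 73.4 and 71.6 CPM in control ESCs, 66.4 and 68.8 in knockout ESCs, 9.68 and 11.1 in control EBs and 31.3 and 28.3 in knockout EBs. The genotypes lay close together in ESCs and far apart in EBs, with a stage difference of 1.63 ± 0.16 (adjusted p = 0.0036). Zfp57, which protects imprints from demethylation, likewise had an effect of 0.06 in ESCs and 0.62 in EBs. Dppa3 (ENSMUSG00000046323.8), also known as Stella, a maternal factor that guards against DNA methylation, had its change in ESCs. It stood at 32.2 and 30.9 CPM in control ESCs, 9.55 and 13.8 in knockout ESCs, 11.9 and 14.9 in control EBs and 17.6 and 19.1 in knockout EBs. Knockout ESCs thus lay below control ESCs and overlapped control EBs. The EB effect of 0.46 ± 0.19 did not pass (adjusted p = 0.204), and the stage difference of Dppa3 was 1.89 ± 0.27 (adjusted p = 0.0129). The orphan nuclear receptors Esrrb and Nr5a2 and the 5-methylcytosine dioxygenase Tet2 had the same form. Their ESC effects were -0.75, -0.75 and -0.55 and their EB effects of 0.25, 0.32 and 0.33 did not pass, and their stage differences were 1.00, 1.07 and 0.88.

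The 9 naive genes that were not called included Klf4 (0.85 ± 0.20, adjusted p = 0.0781) and Nr0b1 (1.00 ± 0.21, adjusted p = 0.0539). Klf4, a factor used in reprogramming, was called by DESeq2 (adjusted p = 0.015) and with the GC trend removed (0.00293), and its adjusted p ranged from 0.000486 to 0.38 over all alternatives. Of 15 general pluripotency genes Zfp42 alone was called, and the list had a median of 0.18. Nanog had a stage difference of 0.59 ± 0.14 (adjusted p = 0.0908), Sox2 of 0.68 ± 0.19 (0.132) and Pou5f1 of 0.43 ± 0.14 (0.22), and none of these 3 core factors passed. Nanog and Sox2 passed by DESeq2 (0.031 and 0.032) and with the GC trend removed (0.0303 and 0.0347), with ranges of 0.0045 to 0.451 and 0.000259 to 0.552 over all alternatives. Pou5f1 passed without knockout ESC replicate 1 (0.000839) and without knockout ESC replicate 2 (0.0447), and its adjusted p reached 0.617 over the alternatives.

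Formative genes did not move as 1 group. Of 17 tested, 4 were called with a negative stage difference (Car4, Dnmt3b, Fgf5 and Sall2) and 0 with a positive one, but 8 values lay above 0 and 9 below, and the median was -0.20. Without knockout ESC replicate 1 the median was 0.15 and 4 members were called in each direction. Without knockout ESC replicate 2 and knockout EB replicate 1 the median was -0.30, 8 members were called negative and 0 positive, and 12 of the 17 values lay below 0. Car4 (ENSMUSG00000000805.18), a carbonic anhydrase anchored to the cell surface, stood at 17.6 and 21.01 CPM in control ESCs, 61.9 and 56.0 in knockout ESCs, 108 and 119.9 in control EBs and 89.5 and 85.8 in knockout EBs. Knockout ESCs were well above control ESCs, and knockout EBs were slightly below control EBs, where the effect of -0.38 ± 0.11 did not pass (adjusted p = 0.0723). Its stage difference was -1.98 ± 0.16 (adjusted p = 0.00245). Sall2, a zinc finger gene, had an effect of -0.15 in ESCs, where it was below 10 CPM, and of -1.19 in EBs. The 13 uncalled members had stage differences from -1.55 (Sox3) to 0.88 (Lef1, adjusted p = 0.0987), and over the list 6 negative and 1 positive values had an unadjusted p below 0.05. DESeq2 called 5 negative, and with the GC trend removed 6 negative and 1 positive were called. The stage differences nearest to 0 were those of Sox11, a neural and epiblast factor, with effects of -1.49 in ESCs and -1.42 in EBs, Otx2 with -0.38 and -0.36, and the de novo methyltransferase Dnmt3a at 0.09 and 0.12. The stage difference of Dnmt3a was 0.03 ± 0.13, against -1.19 for its paralogue Dnmt3b.

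**Figure D3:**
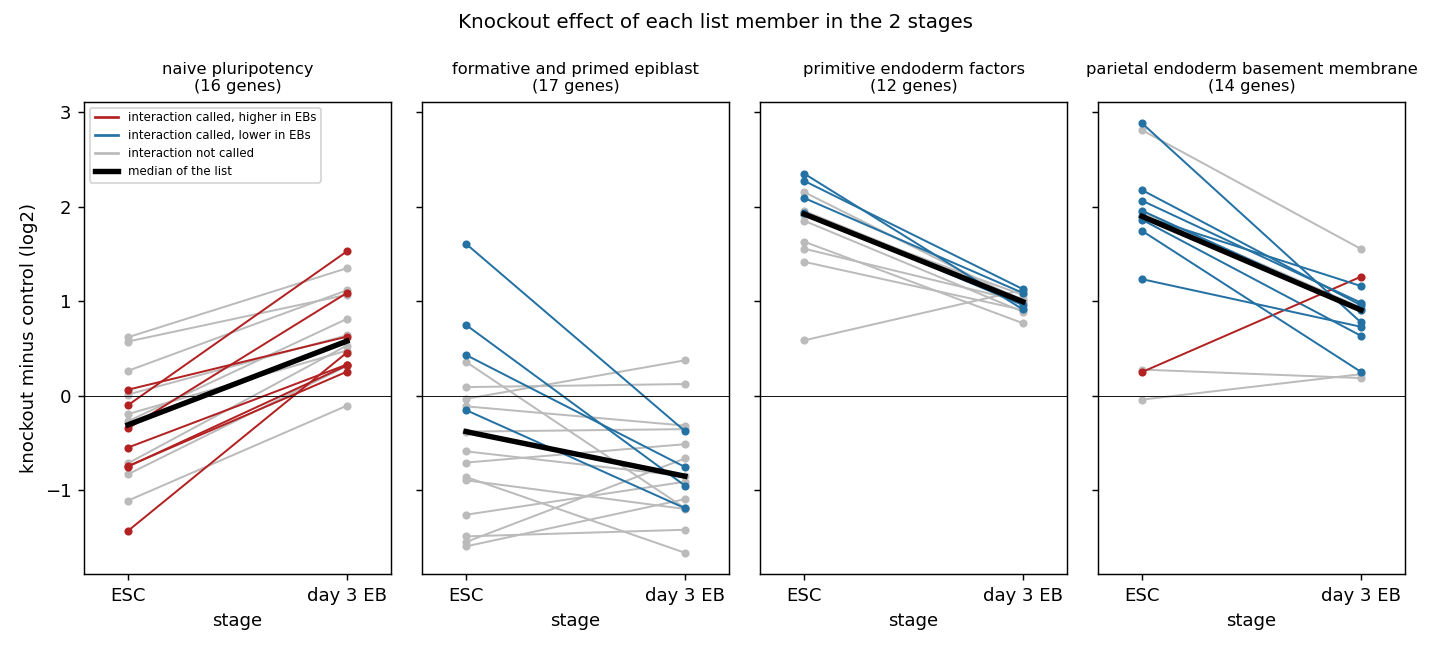
Log2 knockout effect in ESCs and in day 3 EBs of each tested member of 4 lists, with lines joining the 2 values of a gene and a thick line for the median. All 16 naive genes slope upward, 11 of 12 primitive endoderm genes and 12 of 14 genes of the basement membrane list slope downward, and the formative genes are mixed.

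Primitive endoderm genes were higher in knockout cells of both stages, and by more in ESCs. All 12 factors and receptors of the lineage were tested, 12 were higher in knockout ESCs and 11 in knockout EBs, and 0 were lower in either. The median effect was 1.92 in ESCs and 0.99 in EBs, and the median stage difference was -0.95, with 11 of 12 values below 0. Dab2, Pdgfra, Lrp2 and Sox7 were called with a negative stage difference and 0 genes with a positive one. In bulk RNA, fewer cells of a type and less RNA per cell cannot be told apart. Dab2 (ENSMUSG00000022150.16, chromosome 15 from 6299788 to 6440712), an endocytic adaptor that organises this epithelium, stood at 190.1 and 193 CPM in control ESCs, 804 and 831 in knockout ESCs, 549 and 529 in control EBs and 1085 and 1203 in knockout EBs. Knockout libraries lay above control in both stages, but control cells themselves gained Dab2 by 1.49 on the way to EBs and knockout cells by 0.48. The effects were 2.09 ± 0.08 and 1.09 ± 0.08, and the stage difference was -1.01 ± 0.11 (adjusted p = 0.00389).

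Pdgfra (ENSMUSG00000029231.15), a growth factor receptor of the early lineage, did not rise between the stages in control cells. It stood at 23.3 and 24.4 CPM in control ESCs, 110.4 and 120.2 in knockout ESCs, 17.3 and 18.3 in control EBs and 36.4 and 41.2 in knockout EBs. Knockout ESCs were the highest group by a wide margin, and the stage difference was -1.15 ± 0.16 (adjusted p = 0.0114). Sox7, a transcription factor, had -1.44 ± 0.24 and Lrp2, the endocytic receptor megalin, -0.98 ± 0.14. The master factor Gata6 had effects of 1.91 ± 0.20 and 1.06 ± 0.19 and a stage difference of -0.85 ± 0.27 that did not pass (adjusted p = 0.216). It stood at 80.5 and 54.4 CPM in the 2 knockout ESC libraries, a wide spread, and it passed with the GC trend removed (adjusted p = 0.0189, with a range of 0.00356 to 0.651 over all alternatives). Hnf4a, a factor of the visceral endoderm, was the exception in sign, with 0.58 in ESCs and 1.12 in EBs, a stage difference of 0.54 that did not pass (adjusted p = 0.393).

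A list of genes of the parietal endoderm and its basement membrane had the largest count of calls among the lists. Its members are called basement membrane genes here. Some are not components of that membrane, such as the collagen chaperone Serpinh1, the activin antagonist Fst and the plasminogen activator Plat. Of 14 tested, 8 were called with a negative stage difference (Lamb1, Sparc, Srgn, Plat, Lama1, Fst, Serpinh1 and Lamc1) and 1 with a positive one (Nid1), and the median was -1.03, from 1.90 in ESCs and 0.91 in EBs. Lamb1 (ENSMUSG00000002900.17, chromosome 12 from 31265234 to 31329644), the laminin beta 1 chain, stood at 459 and 450.0 CPM in control ESCs, 1667 and 1633 in knockout ESCs, 344 and 378 in control EBs and 536 and 582 in knockout EBs. Knockout was above control in each stage, but between the stages Lamb1 changed by -0.33 in control and by -1.56 in knockout cells. The stage difference was -1.23 ± 0.11 (adjusted p = 0.00245). The other 2 chains of laminin-111 had smaller values, -0.74 for Lama1 and -0.50 for Lamc1.

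Sparc, a collagen-binding glycoprotein, stood at 836 and 847 CPM in control ESCs, 3368 and 3163 in knockout ESCs, 885 and 905 in control EBs and 1539 and 1803 in knockout EBs, with a stage difference of -1.06 ± 0.11 (adjusted p = 0.00389). Plat, which encodes tissue plasminogen activator, stood at 5.29 and 4.24 CPM in control ESCs, 33.3 and 36.6 in knockout ESCs, 4.58 and 5.18 in control EBs and 8.13 and 8.52 in knockout EBs. In both genes the gap between genotypes narrowed without closing. The stage difference of Plat (-2.11 ± 0.27, adjusted p = 0.00789) was the largest in size among called genes whose effects had 1 sign and passed in both stages. Nid1, or nidogen 1, which links laminin to collagen IV, went against the list. It stood at 200.2 and 194 CPM in control ESCs, 225 and 243 in knockout ESCs, 51.1 and 50.03 in control EBs and 118 and 124 in knockout EBs. The genotypes differed by 0.25 in ESCs and by 1.26 in EBs, a stage difference of 1.01 ± 0.12 (adjusted p = 0.00676). The collagen IV genes Col4a1 and Col4a2 had values of -1.01 (adjusted p = 0.0841) and -0.98 (0.136) and were not called.

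The yolk sac genes of uptake and transport showed the narrowing only in part. Of 14 tested, Cubn, the receptor cubilin (-1.14 ± 0.13, adjusted p = 0.00573), and the homeobox gene Rhox5 (-1.14 ± 0.16, adjusted p = 0.0125) were called, and 6 of 14 values lay above 0 with a median of -0.27. Several members are also liver genes, and in knockout EB replicate 1, which held the liver transcripts, Trf stood at 177 CPM against 11.2 in replicate 2 and Apoa1 at 112 against 41.1. Without that library the median was -0.73, and its part in the remaining values was not tested. The 30 liver genes, of which 15 were tested, had a median stage difference of 4.68 with 0 called, and of -1.45 over 14 tested without that library.

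With each library's GC trend removed, 8 primitive endoderm and 10 basement membrane genes were called with a negative stage difference. The medians were -0.99 and -1.06 in that fit, and -1.02 and -1.14 without knockout ESC replicate 2 and knockout EB replicate 1. Leaving out either control ESC library or control EB replicate 2 left 0 called in both lists.

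**Figure D4:**
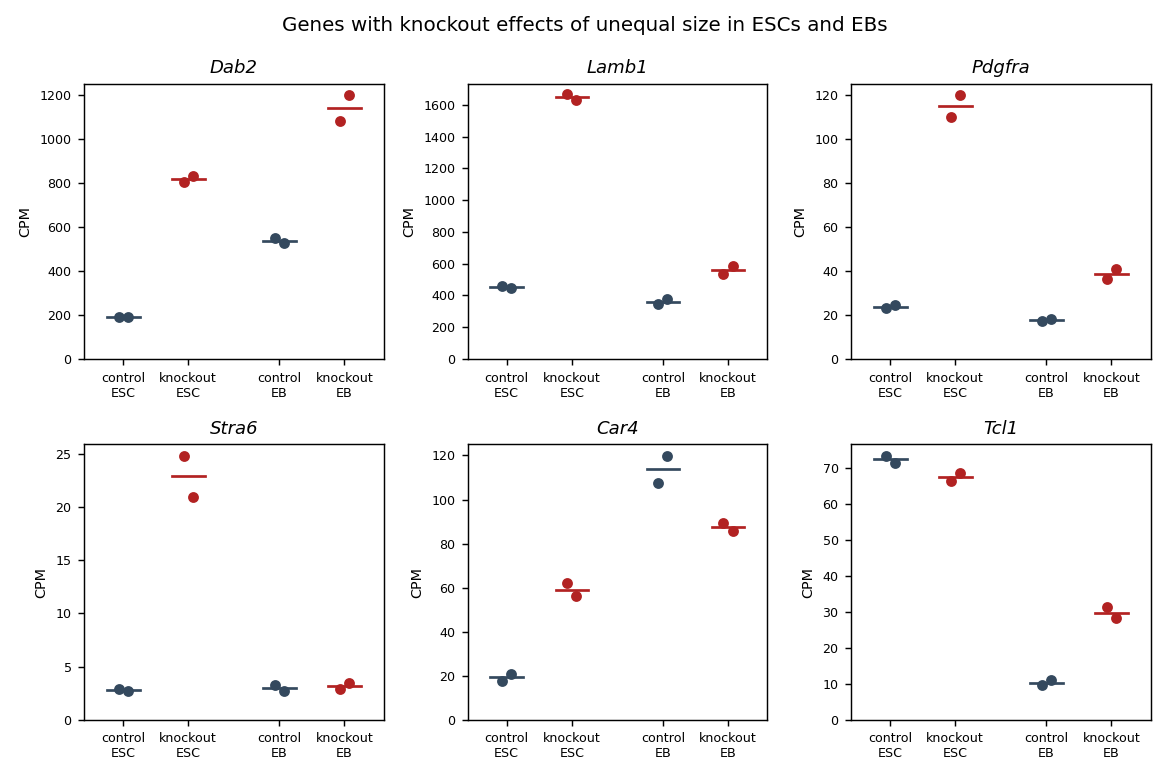
Levels in CPM of 6 genes whose knockout effect differed in size between the stages, with 1 point per library and a bar at each mean. Dab2, Lamb1 and Pdgfra are higher in knockout in both stages. The gap is wider in ESCs for Lamb1 and Pdgfra, while for Dab2 it is close in CPM (626 in ESCs and 605 in EBs). Stra6 differs in ESCs and overlaps in EBs, Car4 is higher in knockout ESCs, and Tcl1 is higher in knockout EBs.

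Of the 130 genes whose effect passed in ESCs only, 60 had the same point sign in both stages. The 130 comprised 79 with a positive stage difference, which were lower in knockout ESCs, and 51 with a negative one, which were higher there. Among the latter, Stra6 (ENSMUSG00000032327.14), the membrane receptor for retinol-binding protein, stood at 2.85 and 2.70 CPM in control ESCs, 24.8 and 20.96 in knockout ESCs, 3.32 and 2.74 in control EBs and 2.86 and 3.42 in knockout EBs. The knockout EB libraries overlapped the control EB libraries, with effects of 3.04 ± 0.23 in ESCs and 0.05 ± 0.24 in EBs, and the stage difference was -2.99 ± 0.33 (adjusted p = 0.00418). The hyaluronan receptor Cd44 (-2.15 ± 0.40) and the adhesion molecule Nrcam (-2.30 ± 0.41) had the same direction. The 2 knockout ESC libraries differed for Cd44, at 11.6 and 20.5 CPM. Nrcam was also lower in both knockout EB libraries than in the controls, an effect of -1.03 ± 0.30 that did not pass (adjusted p = 0.0664). Follistatin (Fst), an activin antagonist that also belongs to the basement membrane list, stood at 46.5 and 53.1 CPM in knockout ESCs and between 8.55 and 15.2 CPM in the 6 other libraries (-1.49 ± 0.23, adjusted p = 0.0133).

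Among the 79 genes on the other side, Mobp (ENSMUSG00000032517.16), known from myelin, had the largest value of the named genes. It stood at 8.06 and 10.2 CPM in control ESCs, 1.39 and 0.801 in knockout ESCs, 1.06 and 1.41 in control EBs and 1.66 and 1.52 in knockout EBs, with both knockout EB libraries just above the controls. Its stage difference was 3.42 ± 0.51 (adjusted p = 0.0133). Tfap2c, which acts in trophoblast and in primordial germ cells, stood at 57.1 and 60.1 CPM in control ESCs, 15.9 and 12.96 in knockout ESCs, 9.22 and 10.8 in control EBs and 8.51 and 9.28 in knockout EBs. In both genes control ESCs were the one high group. Tfap2c had overlapping genotypes in EBs, and its stage difference was 1.85 ± 0.22 (adjusted p = 0.00624). Epp13, a gene of the epididymis, had 2.46 ± 0.35, and Dtna, a member of the dystrophin complex, 2.39 ± 0.43.

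Signalling genes in this class included both Lefty genes, which encode NODAL antagonists that NODAL itself induces. Lefty1 stood at 89.8 and 89.4 CPM in control ESCs, 46.1 and 31.1 in knockout ESCs, 182 and 193 in control EBs and 186 and 187 in knockout EBs, with a stage difference of 1.21 ± 0.21 (adjusted p = 0.025). Knockout was below control in ESCs, while in EBs the libraries of the 2 genotypes overlapped. Lefty2 had effects of -0.45 and 0.13 and a stage difference of 0.58 ± 0.11. Over the 16 tested genes of the NODAL and activin pathway the median was 0.03, with 2 called positive, the Lefty genes, and 1 negative, Fst. In the WNT pathway Porcn, which lipidates WNT ligands (1.13 ± 0.22), and Notum, which removes that lipid (1.33 ± 0.27), were called among 22 tested. Notum is not of this class, as its effect passed in EBs only (-0.38 in ESCs and 0.94 in EBs). Fibronectin (Fn1) was called among 19 matrix and integrin genes. It stood at 1259.5 and 1267 CPM in control ESCs, 755 and 512 in knockout ESCs and 871 to 1004 in the EB libraries, with a stage difference of 1.09 ± 0.20 (adjusted p = 0.0296).

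The 50 genes with effects of 1 sign that were larger in ESCs comprised 42 that were higher in knockout and 8 that were lower. Besides the endoderm genes above, Timd2, a receptor for ferritin, belonged to the former. It stood at 3.01 and 3.62 CPM in control ESCs, 28.9 and 29.3 in knockout ESCs, 27.1 and 33.1 in control EBs and 67.9 and 83.3 in knockout EBs. Knockout ESCs lay within the range of control EBs, and the stage difference was -1.79 ± 0.24 (adjusted p = 0.0096). Ctsl, a lysosomal protease, and the imprinted zinc finger gene Peg3 had -0.73 ± 0.11 and -0.81 ± 0.13. Of the simple keratins, which pair in epithelia, Krt18 was in this class (-0.76 ± 0.16) and Krt8 among those that passed in ESCs only (-0.89 ± 0.16). On the lower side were the forkhead factor Foxp1 and the epoxide hydrolase Ephx2. Foxp1 stood at 49.0 and 57.7 CPM in control ESCs, 13.2 and 11.9 in knockout ESCs, 68.3 and 63.9 in control EBs and 44.0 and 43.3 in knockout EBs, and its stage difference was 1.49 ± 0.17 (adjusted p = 0.00527). Ephx2 had 1.19 ± 0.17 and Ifitm1, an interferon-induced membrane protein, 0.98 ± 0.15.

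Fewer genes had their larger effect in EBs. Of the 38 genes whose effect passed in EBs only, 28 were higher and 10 lower in knockout EBs. The adhesion receptor Adgrd1 (2.06 ± 0.43), the peptide transporter Slc15a1 (1.69 ± 0.34), which stood at 1.86 and 2.82 CPM in control EBs and 7.15 and 7.46 in knockout EBs, and the surface protein Susd2 (1.59 ± 0.31) were higher in knockout EBs at low levels. Lower in knockout EBs were Pphln1, which encodes periphilin, a subunit of the HUSH silencing complex, Hip1, an endocytic protein, the lysine methyltransferase Setd7 and the neurofilament gene Nefl. Pphln1 stood at 43.8 and 44.2 CPM in control ESCs, 42.1 and 59.6 in knockout ESCs, 111 and 103 in control EBs and 48.6 and 49.5 in knockout EBs. Control EBs lay above control ESCs, the knockout EB libraries lay between the 2 knockout ESC libraries, and the stage difference was -1.33 ± 0.20 (adjusted p = 0.0139). Hip1 had -1.17 ± 0.18, Setd7 -1.16 ± 0.17 and Nefl -1.45 ± 0.24.

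The 3 genes with effects of 1 sign that were larger in EBs were all higher in knockout. Liph, a lipase that makes lysophosphatidic acid, stood at 66.8 and 70.7 CPM in control ESCs, 93.1 and 103 in knockout ESCs, 44.0 and 36.9 in control EBs and 107 and 97.2 in knockout EBs (stage difference 0.83 ± 0.16, adjusted p = 0.0349). Aard had 0.89 ± 0.18 and the predicted gene Gm5662 1.38 ± 0.26. Gm5662 is one of a family of near-identical copies, between which the counting could split reads.

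Hypoxia and glycolysis genes gave calls in both directions. Of 24 tested, Pfkp, Bnip3, Hk2 and Pdk1 were called with a positive stage difference and P4ha1 and P4ha2 with a negative one, and 21 of the 24 values lay above 0 with a median of 0.25. Pfkp, the platelet form of phosphofructokinase, stood at 682 and 692 CPM in control ESCs, 561 and 579 in knockout ESCs, 437 and 376 in control EBs and 607 and 585 in knockout EBs (0.82 ± 0.12, adjusted p = 0.0129). The mitophagy receptor Bnip3 (0.81), the hexokinase Hk2 (0.56) and the kinase Pdk1 (0.61), which limits pyruvate entry into mitochondria, were lower in knockout ESCs and had EB effects between -0.08 and -0.02 that did not pass. P4ha1 (-0.91 ± 0.14) and P4ha2 (-1.21 ± 0.13) hydroxylate collagen and were higher in knockout in both stages.

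Genes of the 2-cell-like state, a rare ESC state that expresses genes of the early embryo, had no call for the stage difference. Of 16 multicopy genes 15 were higher in knockout in ESCs and 15 in EBs, and of 10 single-copy genes 5 and 7, with 0 lower. The median effect over the multicopy genes was 2.26 in ESCs and 2.79 in EBs, and over the single-copy genes 2.00 and 1.84. Their median stage differences were 0.53 and 0.73, with 13 of 16 and 7 of 10 values above 0. Of the 26 memberships 0 were called by edgeR's quasi-likelihood test and 0 by DESeq2. An unadjusted p below 0.05 was reached by 8, against 12.5% of all genes tested. These were 5 multicopy and 3 single-copy genes, all with a positive stage difference. Without knockout ESC replicate 2 and knockout EB replicate 1, 4 multicopy genes were called with a positive value. Their copies are near-identical, and the value of a single copy is uncertain. The list of DNA methylation writers and erasers had Dnmt3b and Tet2 called among 15. Of 18 heterochromatin factors, which include G9a and GLP, Suv39h1 was called. Suv39h1, an H3K9 methyltransferase, had effects of 0.64 and -0.20 and a stage difference of -0.84 ± 0.16 (adjusted p = 0.0365). Germline, primitive streak, early neural, BMP, p53, integrated stress response, immediate early, proliferation, cell cycle, Polycomb, epithelial, respiratory chain, cholesterol, ribosomal, histone and mitochondrial lists had 0 called by edgeR's quasi-likelihood test, with medians between -0.34 and 0.28. Of their 269 memberships tested 46 had an unadjusted p below 0.05, against 2136 of the 17125 genes, or 12.5%. DESeq2 called 5 and limma-trend 0.

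Several other lists held 1 to 3 called genes and had medians within 0.5 of 0. Among 14 trophectoderm genes and simple keratins Tfap2c was called positive and Krt8 and Krt18 negative, with a median of -0.20. Of 16 neuronal genes the microtubule regulator Stmn2 (0.71 ± 0.15) was called positive and Nefl negative, and the median was 0.24. Tfcp2l1 was the called gene among 15 of the LIF-STAT3 pathway (median 0.43), Fgf5 among 18 of the FGF-ERK pathway (median 0.21), Peg3 among 20 imprinted genes (median 0.05) and Ifitm1 among 18 interferon and antigen presentation genes (median -0.11). Of the other cell types the libraries could hold, 5 fibroblast genes (median -0.34) and 6 blood genes (median 0.29) were tested and 0 called. The 16 fibroblast markers summed to between 20.8 and 32.1 CPM in the 8 libraries and the 15 blood markers to between 90.6 and 175 CPM.

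At the threshold, the genes with adjusted p just inside were Cdc42se2, Krt42 and Slc29a1 at 0.0499, and just outside were Rmnd5b (0.0503), Rasd1 and Slc30a2 (0.0505 each). Their stage differences, at -0.62, 1.40 and 0.61 inside and 0.90, -1.91 and 1.25 outside, overlapped in size.

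**Figure D5:**
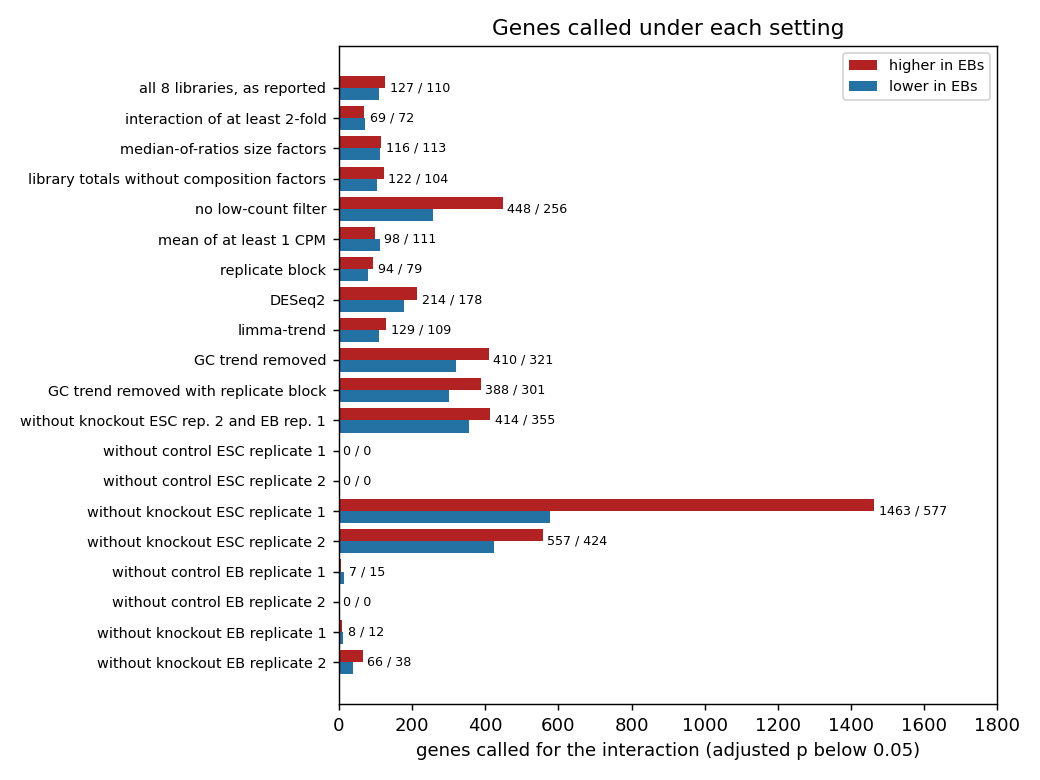
Number of genes called for the stage difference in each direction under each setting, with values printed as positive and negative. The count is 237 with all 8 libraries, 0 without either control ESC library or control EB replicate 2, and 2040 without knockout ESC replicate 1.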

How the data were processed

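Poly(A)-selected RNA was sequenced in 8 libraries, and the authors deposited whole-number counts per gene that they had not normalized, per the file headers. HISAT2, featureCounts, DESeq2 and mm10 are named in the submitters' processing notes, with strand setting, versions and the handling of multi-mapping reads not given in the sources used here. Reads of a gene and its antisense partner therefore cannot be told apart. Of the 55401 gene IDs 55141 were matched to a GENCODE M21 symbol. Counts were filtered with filterByExpr, scaled with TMM factors and fitted by edgeR's quasi-likelihood test (edgeR 4.0.16, R 4.3.3) with 1 mean per group over all 8 libraries (biological coefficient of variation 0.132), and p-values were adjusted over 17125 genes by the Benjamini-Hochberg method. Adjusted p-values in the text come from this test unless another is named. CPM were computed from the TMM-adjusted totals. Values with ± are the estimate and its SE. The procedure was tested on simulated data.

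The members and gene lists were chosen with earlier results of these data known. Named genes were Zfp462, then genes with at least 5 CPM in the highest group and the largest stage difference in each class and direction (5 for opposite signs, 4 for 1 stage only, 2 for other classes), up to 3 called members of each list, and Pou5f1, Sox2, Nanog, Klf4, Tfcp2l1, Dnmt3b, Gata6 and Dab2. Other called list members, uncalled members set beside them and all genes of opposite sign were named after their values were seen. Alternatives were other scalings and filters, the replicate number as a block, DESeq2 1.42.0, limma-trend (limma 3.58.1, prior count 2), a spline correction for GC content (5 degrees of freedom), a 2-fold threshold and libraries left out. Lists and stage effects under each setting, and other tools with a library left out, were alternatives added after seeing the data. The results of some genes are not reported here.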

Additional observations from a re-analysis of the deposited data

Results flagged for a closer look

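The knockout effect differed between ESCs and EBs, by the test of the difference itself, in 237 genes, and those named in the text are given here with the stage difference of each on the log2 scale (EB minus ESC), in the order of its size. Genes with effects of opposite sign had stage differences of Ngfr 1.67, Tfcp2l1 1.43, Dnajc6 1.37, Trh 1.33, Mcf2 1.30 and Zfp42 0.94 where knockout was higher in EBs, and of Pdpn -1.98, Fgf5 -1.70, Kcnk1 -1.41, Unc5b -1.20 and Dnmt3b -1.19 where it was lower. Among genes whose effect passed in ESCs only, the values were Mobp 3.42, Epp13 2.46, Dtna 2.39, Dppa3 1.89, Tfap2c 1.85, Lefty1 1.21, Porcn 1.13, Fn1 1.09, Tet2 0.88 and Lefty2 0.58 for those lower in knockout ESCs. Those higher in knockout ESCs had Stra6 -2.99, Nrcam -2.30, Cd44 -2.15, Car4 -1.98, Fst -1.49, Krt8 -0.89 and Suv39h1 -0.84. Where the effect passed in EBs only, the genes higher in knockout EBs had Adgrd1 2.06, Slc15a1 1.69, Tcl1 1.63, Susd2 1.59, Notum 1.33, Pfkp 0.82 and Stmn2 0.71, and the lower ones Nefl -1.45, Pphln1 -1.33, Hip1 -1.17 and Setd7 -1.16. Genes with effects of 1 sign that were larger in ESCs had stage differences of Plat -2.11, Timd2 -1.79, Lamb1 -1.23, Srgn -1.22, P4ha2 -1.21, Pdgfra -1.15, Cubn -1.14, Rhox5 -1.14, Sparc -1.06, Dab2 -1.01, Lrp2 -0.98, P4ha1 -0.91, Peg3 -0.81, Krt18 -0.76 and Ctsl -0.73 where knockout was higher, and of Foxp1 1.49, Ephx2 1.19 and Ifitm1 0.98 where it was lower. The genes with larger effects of 1 sign in EBs had Aard 0.89 and Liph 0.83. No group held enough libraries to look for a single library far from the others.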

How the results depend on the processing

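The 237 calls (127 positive and 110 negative stage differences) kept their sign and an unadjusted p below 0.05 in every alternative, but they were chosen by this contrast. The count stayed within 1.5 times of 237 under other scalings, a mean of at least 1 CPM, limma-trend and the replicate block. With at least 2-fold it was 141 (69 and 72). Without the low-count filter it was 704 (448 and 256), with 31 genes of opposite sign and 2094 genes called for the knockout effect in EBs. By DESeq2 it was 392 (214 and 178). With the GC trend removed it was 731 (410 and 321), with 71 of opposite sign, 3814 called for the knockout effect in ESCs and 2497 in EBs. Without knockout ESC replicate 2 and knockout EB replicate 1 it was 769 (414 and 355), with 67 of opposite sign and 1923 called in EBs. Leaving out each library in turn gave from 0 to 2040 calls (0 to 1463 positive and 0 to 577 negative), 0 to 135 genes of opposite sign, 756 to 4729 called in ESCs and 236 to 3127 in EBs; a group left with 1 library was assumed to vary like the others. The counts by library were 0 without control ESC replicate 1, control ESC replicate 2 or control EB replicate 2, 22 without control EB replicate 1, 20 without knockout EB replicate 1, 104 without knockout EB replicate 2, 981 without knockout ESC replicate 2 and 2040 without knockout ESC replicate 1. The cause was not tested; replicates of knockout ESCs had the widest spread (SD of the log2 difference 0.409 against 0.19 to 0.365). Over these 8 fits 15 genes were called in 5, among them Car4, Dab2, Dnmt3b, Lamb1, Pdpn, Sparc, Stra6, Tcl1, Tfcp2l1 and Trh, 10 in 4, 48 in 3 and 164 in 2.

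With the replicate number as a block 173 genes were called (94 and 79), 168 of them among the 237, 13 were of opposite sign, and 2281 and 967 were called for the knockout effect in ESCs and EBs. Among the called genes in the text, Aard, Adgrd1, Cdc42se2, Clic6, Ecm2, Gjc1, Gpx4-ps2, Hk2, Kdelr3, Krt42, Lamc1, Liph, Notum, Pdk1, Slc15a1, Slc29a1, Stmn2, Susd2, Suv39h1, Tet2 and Zfp57 then missed the threshold, with adjusted p from 0.0553 to 0.0776. With genes gained, the positive naive calls went from 7 to 6, the negative basement membrane calls from 8 to 7 and the positive hypoxia and glycolysis calls from 4 to 3. With the GC trend removed and the block it was 689 (388 and 301), with 69 of opposite sign and 2390 called in EBs. Whether same-numbered libraries share more than a number is not stated in the labels. Their deviations had correlations from -0.238 to 0.0373 over the 6 pairs of groups. These values cannot decide it, because the deviations also hold the GC trend of knockout ESCs and the liver transcripts of knockout EB replicate 1. Depth limited genes under a few CPM, where SEs reached 0.80 (Gjb1) among called genes.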

Other observations

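The groups here were put together after the values were seen. Both named targets of Hedgehog signalling were lower in knockout ESCs. Ptch1, the Hedgehog receptor and its own target, stood at 128 and 138 CPM in control ESCs, 62.8 and 55.7 in knockout ESCs and 70.3 to 79.1 in the 4 EB libraries, with a stage difference of 1.12 ± 0.15 (adjusted p = 0.0096), and the transcription factor Gli1 had 1.39 ± 0.28 (0.0388). Netrin 1 (Ntn1, 1.97 ± 0.27) and the semaphorin receptor Nrp2 (1.85 ± 0.24), which stood at 119 and 124 CPM in control ESCs, 40.7 and 44.0 in knockout ESCs and 7.69 to 13.2 in EBs, were likewise lower in knockout ESCs, with EB effects that did not pass. Some called genes act in collagen maturation and secretion, and how many uncalled genes do was not counted. Higher in knockout ESCs with a negative stage difference were, besides P4ha1 and P4ha2, the collagen chaperone Serpinh1 (-1.08 ± 0.18), the lysyl hydroxylase Plod2 (-0.80 ± 0.14), the lysyl oxidase Loxl2 (-0.93 ± 0.17), the disulfide-forming enzyme Qsox1 (-1.04 ± 0.19) and the retrieval receptor Kdelr3 (-0.76 ± 0.14). In Plod2 and Qsox1 the EB effect did not pass.

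Lysosomal proteases had unlike stage differences. Ctsl, Ctsh (-0.83 ± 0.14), Ctsc (-0.76 ± 0.14) and Lgmn (-0.78 ± 0.13) were called with a larger effect in ESCs, while Ctsb and Ctsz were higher in knockout of both stages with stage differences of -0.09 ± 0.13 and -0.09 ± 0.16 that did not pass. The glutathione peroxidase gene Gpx4, which protects membrane lipids, stood at 284 and 293 CPM in control ESCs, 296 and 232 in knockout ESCs, 412 and 378 in control EBs and 651 and 633 in knockout EBs (0.83 ± 0.15, adjusted p = 0.03). Its pseudogene Gpx4-ps2 had 0.91 ± 0.17, and the counting could split reads between the 2 genes.

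The log2 scale decided the direction for 6 called genes. Timd2, Amot, Ctsh, Ctsc and Clic6 had the larger log2 effect in ESCs but the larger CPM difference in EBs, and Gm5662 was the reverse. Dab2 kept its direction, but its CPM differences were close, at 626 in ESCs and 605 in EBs. The largest stage differences among the 237 genes, of Gjb1 (3.88 ± 0.80) and Ecm2 (-3.80 ± 0.77), came from genes below 5 CPM in every library.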
